A study of Mus musculus with 16 samples.

Results

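Liver transcripts were compared between 4 libraries labelled RPN11 hepatocyte-specific knockout and 4 labelled RPN11 flox/flox, 8 of the 16 libraries of the series, over every gene of the deposited count table. All came from male C57BL/6 mice kept on a 12-hour light cycle with free access to food, and the flox/flox livers carry the same floxed allele as the labelled knockouts. The other 8 livers are a METTL3 hepatocyte-specific knockout and its flox/flox controls and are used here only where the lines are set against each other. The sources used here do not give age, diet, time of collection or the Cre driver. The series title concerns inhibition of RPN11 in nonalcoholic fatty liver disease. RNA was depleted of ribosomal RNA before sequencing, and total counts ran from 20938715 to 27645935 in the labelled knockouts and from 24516234 to 28212133 in the flox/flox livers.

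RPN11, encoded by Psmd14, is the deubiquitylating subunit in the lid of the proteasome's regulatory particle, and it cuts ubiquitin chains off a substrate as the substrate is drawn into the proteolytic core. Hepatocytes build fatty acids and sterols under the SREBP transcription factors and burn fatty acids in mitochondria and peroxisomes under PPAR alpha. They also answer type I interferon through receptor kinases and a transcription complex that holds IRF9, which switches on a common set of antiviral genes and its own feedback inhibitors.

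Psmd14 (chr2:61711694-61800376, GRCm38) was not lower in the labelled knockouts. Its level was 86.5, 68.5, 78.5 and 63.4 CPM (counts scaled to library size and TMM factor) in labelled knockouts 1 to 4 and 70.4, 76.9, 71.7 and 76.4 CPM in flox/flox livers 1 to 4. The groups overlapped, with a log2 fold change of 0.0073, an adjusted p of 0.976 and an exact two-sided permutation p of 1, where 4 against 4 livers allow no p below 0.0286. The counts are of whole genes in whole liver, so a floxed exon cannot be read apart from the rest of the transcript and non-hepatocytes also contribute. Because these counts do not show the loss that the genotype label names, the livers are called labelled knockouts throughout.

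Adjusted p-values come from a quasi-likelihood test in edgeR, adjusted by Benjamini-Hochberg over the 12108 genes tested. A gene is called higher or lower when that value is under 0.05, and ± is the standard error of the fit. The labels do not say whether the libraries of a group are separate animals, so these p-values measure only the spread between the 4 samples of a group. Labelled knockouts 1 and 3 were the most alike of all pairs (chi-square per gene 8.37, next lowest 30.2), still far above the sampling noise of 1.

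The liver label held for the defining hepatocyte transcripts. The 6 hepatocyte markers summed to 131200 to 155500 CPM in flox/flox livers, to 110900 to 123800 CPM in labelled knockouts 1 to 3 and to 95800 CPM in labelled knockout 4, with none of the 6 called by edgeR, 2 with an unadjusted p under 0.05 and 1 called lower by DESeq2 and 1 by limma-voom. Albumin made up most of that sum, at 81591, 94024, 86747 and 71815 CPM in the labelled knockouts and 107540, 101450, 126970 and 112950 CPM in the flox/flox livers (adjusted p = 0.111). In bulk liver, fewer cells of a type and less RNA per cell cannot be told apart.

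Labelled knockout 4 stood apart through transcripts foreign to liver. Its 23 neuron markers summed to 686 CPM, against 27.5 to 36.1 CPM in labelled knockouts 1 to 3 and 16.5 to 19.3 CPM in flox/flox livers. The synaptic kinase gene Camk2a stood at 2.94, 3.24, 1.73 and 136 CPM in labelled knockouts 1 to 4 and at 1.02, 1.11, 1.06 and 0.516 CPM in the flox/flox livers. The myelin gene Mbp stood at 0.436, 0.605, 1.28 and 39.2 CPM against 0.392, 0.725, 0.529 and 0.602 CPM. In both genes most of the excess lay in the fourth labelled knockout, but Camk2a in labelled knockouts 1 to 3 was also above every flox/flox liver. Without labelled knockout 4, 3 of 9 tested neuron markers were called higher and 0 lower, with a median log2 fold change of 1.23. Of 9 tested glia markers 0 were then called higher and 1 lower, with a median of 0.07.

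The same liver was high in macrophage genes. The macrophage elastase gene Mmp12 was at 165, 223, 163 and 3602 CPM in the labelled knockouts and 62.6, 55.8, 44.3 and 54 CPM in the flox/flox livers. Gpnmb, a glycoprotein of lipid-laden macrophages and osteoclasts, was at 14.1, 18.1, 45.7 and 1946 CPM against 10.2, 8.85, 6.95 and 4.95 CPM, and Chi3l3, a chitinase-like lectin, at 41.8, 54.7, 47.4 and 1273 CPM against 19.7, 16.4, 14 and 14.7 CPM. Clec4f and Vsig4, markers of the liver's resident Kupffer cells, did not follow them. Clec4f was at 95.7, 49.8, 76.5 and 39.9 CPM against 84.8, 73.4, 84.6 and 57.8 CPM and Vsig4 at 55.5, 38.1, 49 and 25.2 CPM against 57.4, 37.6, 37.8 and 27.5 CPM. The cholangiocyte sum of 634 CPM in labelled knockout 4 came to 95.1% from osteopontin (Spp1), with Krt19 at 0.41 CPM and Epcam at 1.43 CPM.

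**Figure D1:**
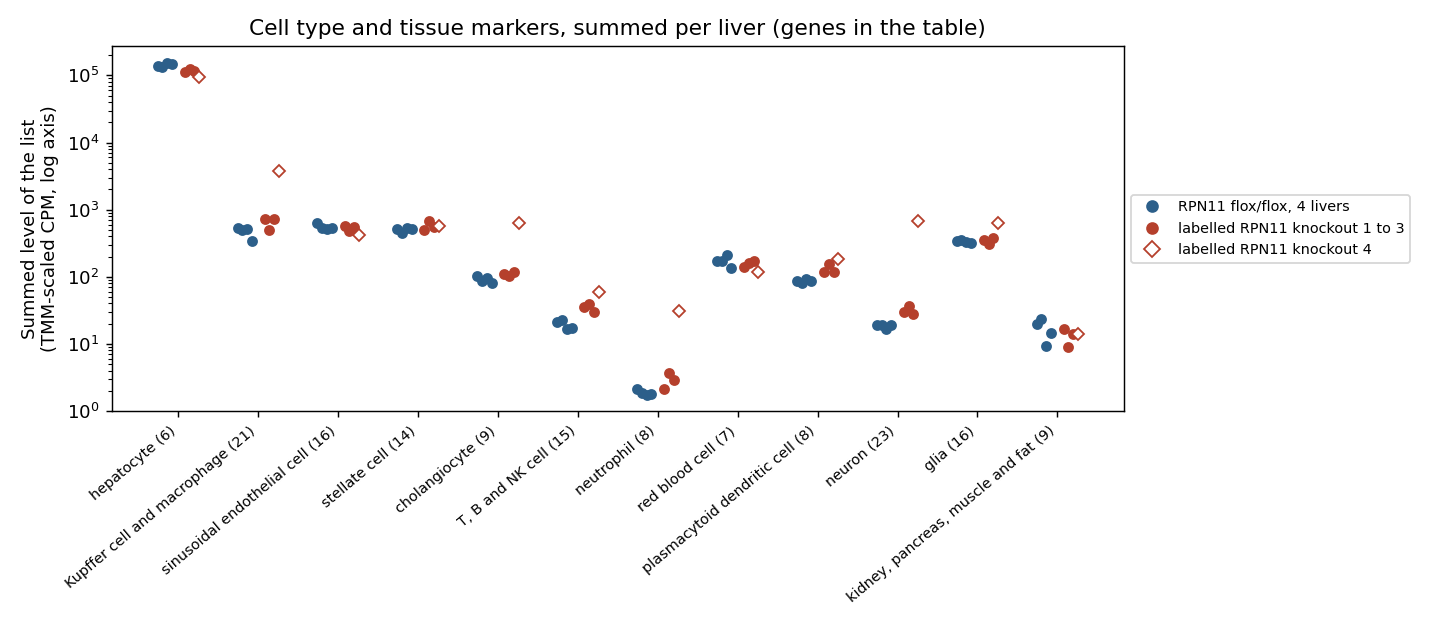
Summed level of each marker list (TMM-scaled CPM, log axis) in each of the 8 livers, with the number of genes in the table in parentheses. Labelled knockout 4 (open diamonds) lies far above the other livers in the neuron sum (686 CPM) and the macrophage sum (3796 CPM), while the sinusoidal endothelial and stellate sums of the 8 livers lie within 424 to 675 CPM.

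Across the tested genes, 319 (2.63%) were over 5 times higher in labelled knockout 4 than in any of the 7 other livers, a set picked by these values and given no test. They summed to 19610 CPM in that liver, to 1188 to 1336 CPM in labelled knockouts 1 to 3 and to 679 to 881 CPM in flox/flox livers. In 266 of the 319 genes the mean of labelled knockouts 1 to 3 was also above the flox/flox mean, with a median log2 ratio of 0.56 against -0.01 over all tested genes. The fourth METTL3 knockout carried many of the same transcripts, with 195 of the 319 genes over 5 times above the other METTL3 knockouts. Over plain library totals, Mmp12 was at 4200 CPM in RPN11 labelled knockout 4 and 3580 CPM in METTL3 knockout 4, and Camk2a at 159 and 128 CPM. At far lower levels, METTL3 flox/flox liver 4 was also the highest of its group. There Mmp12 was at 190 CPM against 5.15 to 15.4 CPM in METTL3 flox/flox livers 1 to 3. Camk2a was at 2.24 against 0 to 0.0728 CPM, and Gpnmb at 8.42 against 0.359 to 6.3 CPM. No gene of the interferon lists and 1 gene of the lipid lists was among the 319.

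With all 8 livers, 241 genes were called higher (1.99% of 12108) and 342 lower (2.82%). All 4 labelled knockouts lay above all 4 flox/flox livers in 8.32% of tested genes and below them in 9.86%. Without labelled knockout 4, 447 genes were called higher (3.65% of 12231) and 494 lower (4.04%), and 230 of the 241 and 333 of the 342 calls were kept. The count depended on single livers in the other direction too. It was 37 higher and 23 lower without flox/flox liver 1, 41 and 18 without flox/flox liver 3, 51 and 33 without flox/flox liver 4, 124 and 141 without flox/flox liver 2, and 87 and 92 without labelled knockout 2. Of the 126 named genes called with 8 livers, 37 kept their call without flox/flox liver 1, 33 without liver 3 and 37 without liver 4. The number was 73 without liver 2 and 52 without labelled knockout 2. None reversed, but 239 of the 241 higher and 341 of the 342 lower calls had complete separation of the 8 livers. With such separation, leaving out 1 liver can hardly turn a direction, so this does not measure stability. Usp18, Ifi27, Ifi44, Ifit1, Irf7, Rsad2, Trim30a, Srebf1, Fasn and Fdft1 were among those called in every alternative run.

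**Figure D2:**
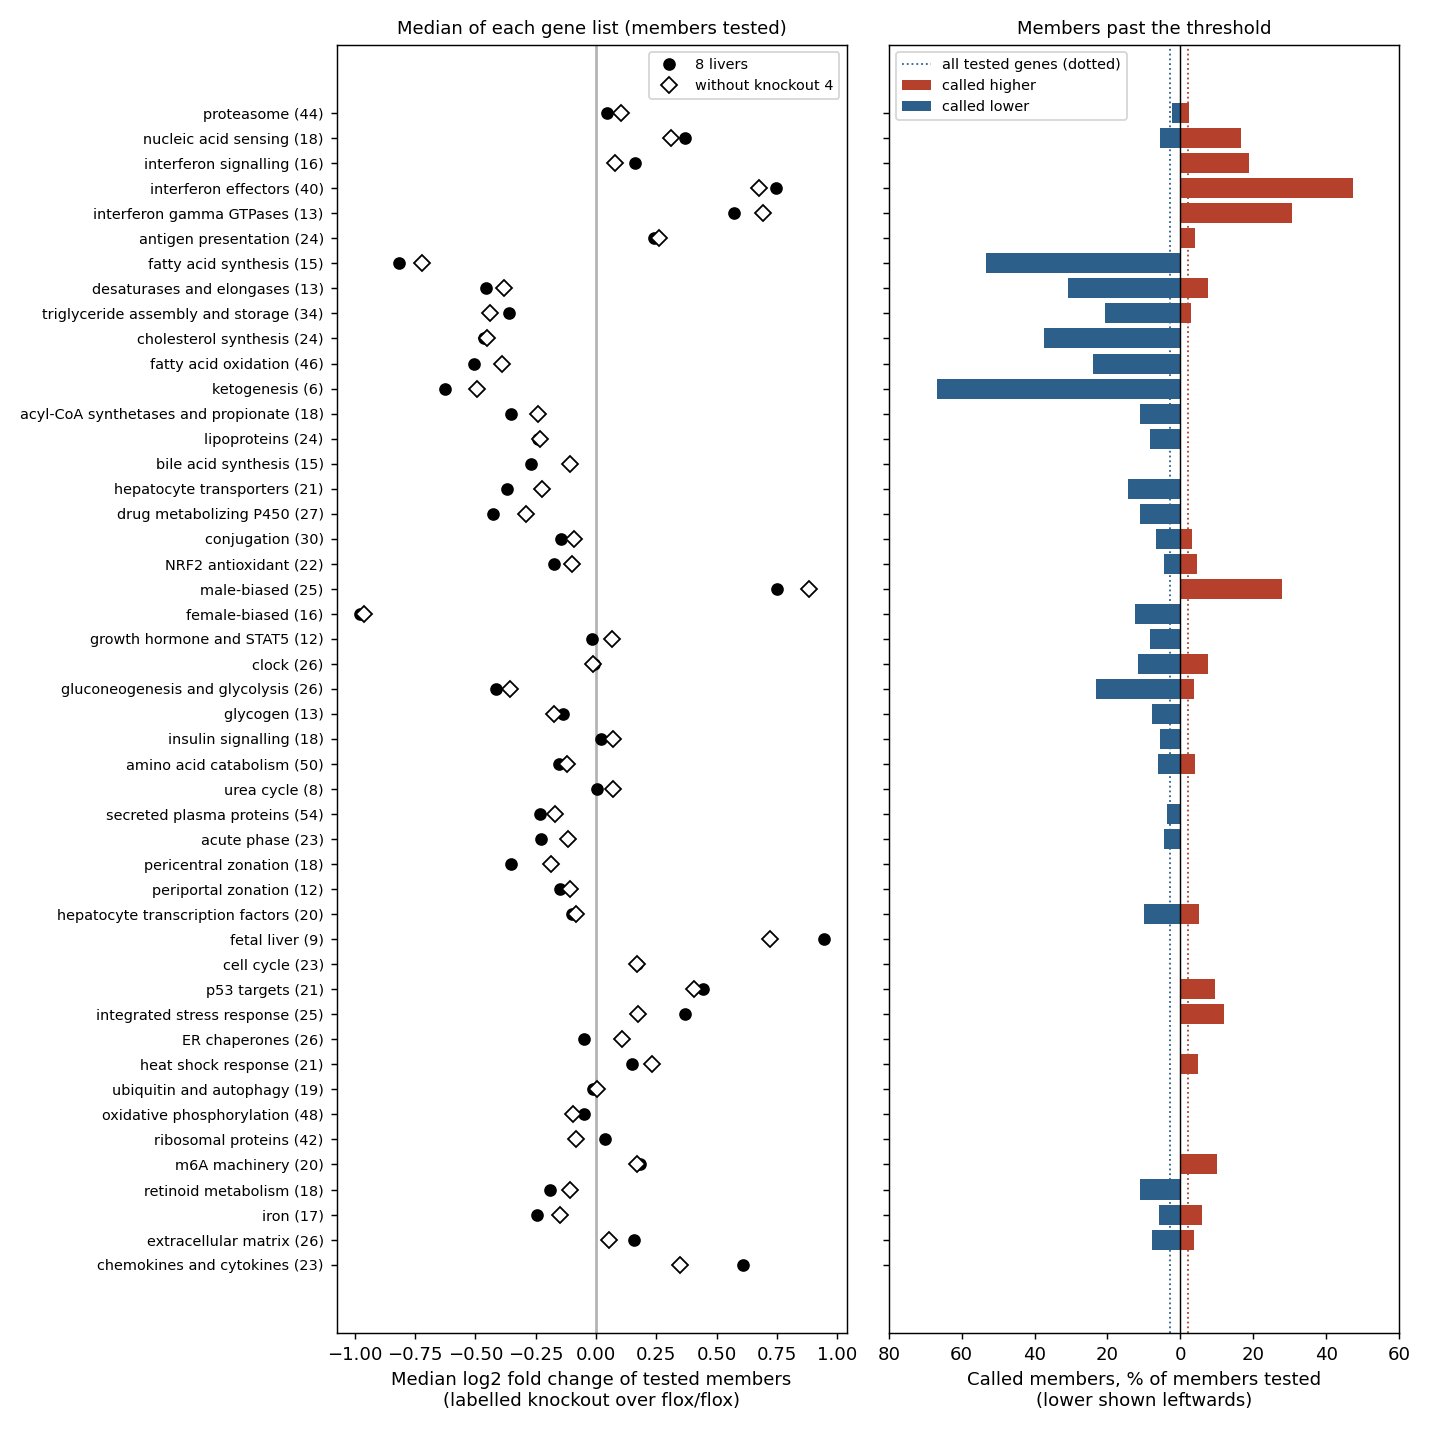
Left, median log2 fold change (labelled knockout over flox/flox) of the tested members of each gene list with 8 livers (filled) and without labelled knockout 4 (open), with the number tested in parentheses; right, the share of tested members called higher (red) or lower (blue), with dotted lines at 1.99% and 2.82% for all tested genes. Interferon effectors, interferon gamma GTPases and male-biased genes hold large shares of higher calls, and ketogenesis and fatty acid synthesis large shares of lower calls.

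Of 44 tested proteasome genes 1 was called higher and 1 lower with 8 livers, shares near those of all genes, and 4 were called higher and 1 lower without labelled knockout 4. DESeq2 called 2 higher and limma-voom 5, and the list's median log2 fold change was 0.04, against 0.03 over all tested genes. None of the 7 alpha subunits, 7 beta subunits, 6 ATPases and 11 other subunits of the base and lid was called by edgeR, and 4 of these 31 had an unadjusted p under 0.05. Among them limma-voom called 2 alpha subunits, 1 ATPase and 1 other subunit higher, and DESeq2 1 alpha subunit. Psmd7, the lid partner with which RPN11 forms its active dimer, was at 92.5, 86.5, 98.4 and 68.1 CPM against 88.7, 81.5, 89.7 and 81.1 CPM.

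Usp14, which encodes a deubiquitylase that docks on the regulatory particle, rose. It was at 75.5, 74.2, 76.4 and 75.1 CPM in the labelled knockouts and 55.8, 51.9, 51.2 and 54.4 CPM in the flox/flox livers, without overlap (log2 fold change 0.50 ± 0.09, adjusted p = 0.0152). Nfe2l1, which encodes the transcription factor that raises proteasome genes when proteasome capacity falls, fell from 159.5, 168, 176 and 153 CPM to 128, 80.3, 130.1 and 92.3 CPM (log2 fold change -0.61 ± 0.15, adjusted p = 0.0469). Of 19 ubiquitin and autophagy receptor genes none was called by edgeR (2 had an unadjusted p under 0.05, DESeq2 called 1 higher and 1 lower, and limma-voom 1 lower), and the polyubiquitin gene Ubb had an adjusted p of 0.701.

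Interferon-related transcripts made up a large group of rises. Over 5 lists (sensors, signalling, effectors, interferon gamma GTPases and antigen presentation) 30 of 111 tested genes were called higher and 1 lower, and 98 had a log2 fold change above 0. The median over the 111 genes was 0.43. The lists were written with earlier results of these data known, so the counts describe the group and test nothing about it.

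Among the sensors of foreign nucleic acid 3 of 18 rose and 1 fell. Dhx58, the regulatory RNA helicase LGP2, was at 14.2, 9.93, 10.1 and 9.75 CPM against 6.46, 7.21, 5.69 and 6.79 CPM (log2 fold change 0.75 ± 0.19, adjusted p = 0.0432). The Z-nucleic acid sensor Zbp1 was at 15.7, 11.3, 13.8 and 11.7 CPM against 4.39, 9.34, 6.06 and 7.05 CPM (log2 fold change 0.97 ± 0.23, adjusted p = 0.0375). Both gave non-overlapping groups. The DNA-binding Ifi204 also rose (adjusted p = 0.024), while Mavs, the mitochondrial adaptor of the RNA sensors, fell (log2 fold change -0.56 ± 0.14, adjusted p = 0.0446). The RNA sensor gene Ifih1 missed the threshold with all livers (adjusted p = 0.0589) and passed it without labelled knockout 4 (adjusted p = 0.00675).

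In the signalling chain edgeR called 2 interferon regulatory factor genes and none of the 6 receptor and kinase genes. Of those 6, 1 had an unadjusted p under 0.05, and 1 was called lower by DESeq2, 1 by limma-voom and 1 by edgeR without labelled knockout 4. Irf7, the factor that amplifies the interferon response, was at 62.3, 49.1, 67.8 and 40.2 CPM against 18, 21.7, 19.4 and 20.2 CPM (log2 fold change 1.47 ± 0.16, adjusted p = 0.00194). Irf9, a DNA-binding part of the transcription complex that type I interferon activates, was at 56.4, 58.5, 58.7 and 52.9 CPM against 37.8, 49.96, 37 and 36.2 CPM (log2 fold change 0.49 ± 0.12, adjusted p = 0.0409).

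Usp18 (chr6:121245906-121270917), the deISGylating protease that shuts off the interferon receptor, had the lowest p of all tested genes. It was at 25.1, 23.1, 23.3 and 21.2 CPM in the labelled knockouts and 3.72, 4.27, 4.19 and 5.29 CPM in the flox/flox livers, a 5.31-fold difference in means (log2 fold change 2.41 ± 0.15, adjusted p = 4.35e-05). The lowest labelled knockout was far above the highest flox/flox liver, and labelled knockout 4 sat with the others.

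Of 40 effector genes 19 rose and none fell, with a median log2 fold change of 0.74. That count was 7, 10 and 9 without flox/flox liver 1, 3 or 4. Ifit1 (chr19:34640871-34650009), which binds viral RNA ends, was at 23.7, 23.1, 23.5 and 13.6 CPM against 6.31, 5.8, 7.4 and 6.54 CPM (log2 fold change 1.69 ± 0.19, adjusted p = 0.00239), with labelled knockout 4 the lowest of its group and still above every flox/flox liver. Ifi27 was at 123, 121, 123 and 110.2 CPM against 34.5, 39.4, 52.3 and 48.6 CPM (log2 fold change 1.45 ± 0.13, adjusted p = 0.000797). Ifi44 was at 28.4, 22.6, 24.7 and 17.1 CPM against 4.78, 4.84, 6.87 and 7.91 CPM (log2 fold change 1.93 ± 0.21, adjusted p = 0.00194). In these 3 genes no labelled knockout overlapped a flox/flox liver.

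Rsad2, which encodes the antiviral enzyme viperin, was at 16.8, 19.8, 19.6 and 18.1 CPM against 10.4, 9.5, 8.09 and 7.1 CPM (log2 fold change 1.08 ± 0.16, adjusted p = 0.00681). Trim30a was at 24.1, 16.8, 20.8 and 20.6 CPM against 9.28, 9.76, 10.2 and 10.7 CPM (log2 fold change 1.04 ± 0.14, adjusted p = 0.00601). All 3 IFIT genes and 4 of 7 oligoadenylate synthetase and RNase L genes were called higher, but none of the 4 genes of the ISG15 pathway, of which 3 had an unadjusted p under 0.05 and limma-voom called 2 higher. Isg15, the ubiquitin-like modifier that Usp18 removes, was at 3.96, 4.06, 3.42 and 4.26 CPM against 0.666, 1.56, 2.52 and 3.1 CPM, low counts with a wide flox/flox range (adjusted p = 0.17).

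Rnf213 and Apol9a, genes of this kind, were among those of lowest p. Rnf213, a giant ubiquitin ligase gene that responds to interferon, was at 127, 109.9, 112 and 115 CPM against 54, 69.3, 67.3 and 62.2 CPM (log2 fold change 0.88 ± 0.11, adjusted p = 0.00339). Apol9a, a mouse apolipoprotein L gene, was at 96.5, 98.4, 99.3 and 78 CPM against 29.5, 43.6, 42.3 and 32.7 CPM (log2 fold change 1.33 ± 0.14, adjusted p = 0.00194).

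Of the interferon gamma GTPases, 4 of 5 guanylate-binding protein genes were called higher and none of 8 immunity-related GTPase genes was, where 2 had an unadjusted p under 0.05 and limma-voom called 4 higher. Gbp3 was at 27.8, 23.8, 32 and 18.6 CPM against 10.9, 9.04, 11.2 and 14.9 CPM (log2 fold change 1.15 ± 0.20, adjusted p = 0.0131) and Gbp7 at 38, 35.4, 32 and 28.3 CPM against 23.4, 21.7, 18.1 and 20.9 CPM (log2 fold change 0.67 ± 0.13, adjusted p = 0.0182). Without labelled knockout 4, 3 of the 8 immunity-related GTPase genes were called higher. Of 24 antigen presentation genes 1 was called, the immunoproteasome subunit gene Psmb8 at 30.8, 29.7, 28.7 and 26.6 CPM against 21.6, 18.2, 19 and 20.9 CPM (log2 fold change 0.54 ± 0.11, adjusted p = 0.0235). B2m, the class I light chain, was at 2164, 2632, 2113 and 2263 CPM against 1646, 1543, 1766 and 1854 CPM (adjusted p = 0.0726, and 0.0323 without labelled knockout 4).

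**Figure D3:**
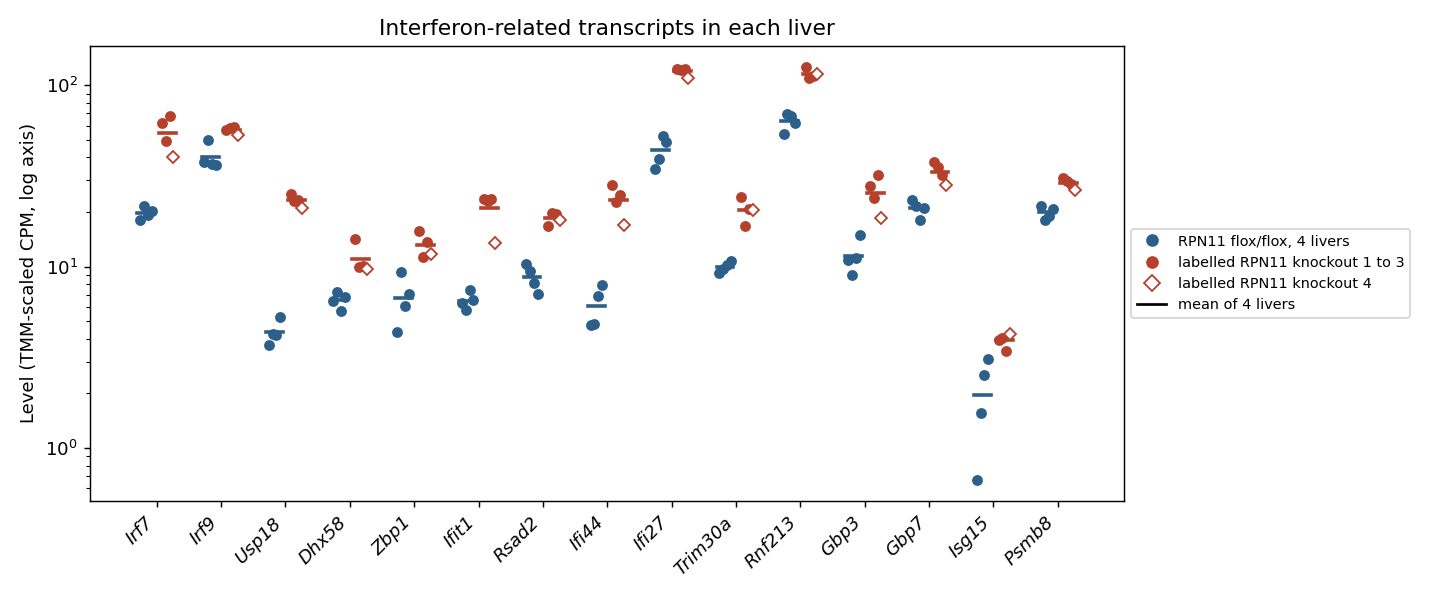
Level of 15 interferon-related genes (TMM-scaled CPM, log axis) in each liver, bars marking group means of 4. The labelled knockouts, labelled knockout 4 included (open diamond), lie above all flox/flox livers for every gene shown; Isg15 was not past the threshold.

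Immune cell markers moved with this group in part. Ptprc, the pan-leukocyte phosphatase CD45, was at 27.6, 27.7, 24.1 and 55.8 CPM against 14.9, 16.3, 12.6 and 12 CPM (log2 fold change 1.28 ± 0.26, adjusted p = 0.0268), and the macrophage pore protein gene Mpeg1 at 157, 109, 139.8 and 165 CPM against 77.6, 88.2, 64.1 and 48.4 CPM (log2 fold change 1.03 ± 0.19, adjusted p = 0.0178). Of 20 tested macrophage markers 1 was called, of 3 tested T, B and NK cell markers 1, and of 5 tested plasmacytoid dendritic cell markers 2 (Bst2, itself an interferon effector, and Il3ra). Of the 20 macrophage markers 18 had a log2 fold change above 0, with a median of 1.04, or 0.44 without labelled knockout 4. With all 8 livers, 8 of them had an unadjusted p under 0.05 in edgeR, DESeq2 called 3 higher and limma-voom 2. The macrophage sum was 336 to 538 CPM in flox/flox livers and 499 to 738 CPM in labelled knockouts 1 to 3, and Csf1r had at most 0.129 CPM in any liver. The part of these cells in the interferon result was not tested.

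The interferon-stimulated response element, searched as GAAANNGAAA on both strands, was found in the 250 bases before the start of 978 of 32851 RefSeq promoters (2.98%, GRCm38.p6). Of the 30 called interferon genes 21 had a promoter in that table, and 12 of the 21 held the element in any of their promoters, as did 14 of 64 that were not past the threshold. Counted by promoter, as in the share above, these were 13 of 26 and 14 of 71. A match is a description of the letters and not a bound site. The 250 bases before the start of the 5 named called genes with a match follow, with that of Isg15 for comparison, matches in capitals, 5′ to 3′ on the gene's strand. The windows are chr19:34640639-34640888 (plus strand, Ifit1), chr12:26456453-26456702 (minus strand, Rsad2), chr3:142559794-142560043 (plus strand, Gbp3), chr3:142530086-142530335 (plus strand, Gbp7), chr7:104465194-104465443 (minus strand, Trim30a) and chr4:156200819-156201068 (minus strand, Isg15).
Ifit1: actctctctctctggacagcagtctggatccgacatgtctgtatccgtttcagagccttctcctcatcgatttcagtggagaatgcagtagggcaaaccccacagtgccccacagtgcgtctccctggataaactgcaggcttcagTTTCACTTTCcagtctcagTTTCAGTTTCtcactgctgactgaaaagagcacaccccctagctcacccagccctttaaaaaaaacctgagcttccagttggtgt
Rsad2: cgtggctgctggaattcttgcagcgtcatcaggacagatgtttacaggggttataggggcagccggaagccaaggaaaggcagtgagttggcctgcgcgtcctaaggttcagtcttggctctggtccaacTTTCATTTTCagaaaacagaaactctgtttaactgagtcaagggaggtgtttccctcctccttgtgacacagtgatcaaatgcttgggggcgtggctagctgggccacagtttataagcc
Gbp3: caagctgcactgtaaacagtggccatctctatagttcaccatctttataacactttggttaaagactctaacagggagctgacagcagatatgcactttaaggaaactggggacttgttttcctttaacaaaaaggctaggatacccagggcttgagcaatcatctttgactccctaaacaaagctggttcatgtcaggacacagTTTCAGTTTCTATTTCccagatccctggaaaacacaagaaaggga
Gbp7: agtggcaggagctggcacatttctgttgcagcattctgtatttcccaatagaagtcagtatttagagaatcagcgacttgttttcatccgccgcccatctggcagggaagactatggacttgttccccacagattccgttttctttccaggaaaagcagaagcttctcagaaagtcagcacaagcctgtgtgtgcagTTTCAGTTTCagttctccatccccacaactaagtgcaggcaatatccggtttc
Trim30a: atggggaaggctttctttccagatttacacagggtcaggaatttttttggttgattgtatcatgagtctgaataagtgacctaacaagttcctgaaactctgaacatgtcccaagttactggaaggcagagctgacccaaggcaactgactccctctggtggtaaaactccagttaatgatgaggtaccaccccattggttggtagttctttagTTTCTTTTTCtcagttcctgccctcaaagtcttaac
Isg15: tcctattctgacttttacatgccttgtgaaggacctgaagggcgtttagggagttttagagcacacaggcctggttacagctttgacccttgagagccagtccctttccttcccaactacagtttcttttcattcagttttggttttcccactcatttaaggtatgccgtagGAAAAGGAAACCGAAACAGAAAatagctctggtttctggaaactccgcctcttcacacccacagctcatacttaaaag
Ifit1 holds a pair of separate matches, and Gbp3 and Isg15 hold overlapping ones, while Rsad2, Gbp7 and Trim30a hold 1 each. Isg15, which was not past the threshold, thus holds 3 matches, more than any of the 5 called genes shown.

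Fatty acid synthesis genes fell. Of 15 tested genes 8 were called lower and none higher, with a median log2 fold change of -0.82, and in 12 of the 15 every labelled knockout lay below every flox/flox liver. The count was 5, 4 and 4 without flox/flox liver 1, 3 or 4. Srebf1 (chr11:60199089-60222581), the SREBP gene that drives lipogenesis, was at 35.3, 38.7, 32.6 and 32.6 CPM in the labelled knockouts and 77.4, 108, 96.4 and 97.6 CPM in the flox/flox livers (log2 fold change -1.45 ± 0.12, adjusted p = 0.000413). Its highest labelled knockout was well below its lowest flox/flox liver. Mlxipl, which encodes the carbohydrate-responsive factor ChREBP, overlapped between the groups at 334, 433, 324 and 408 CPM against 370.3, 378, 374 and 529 CPM (adjusted p = 0.608).

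The enzymes downstream were lower too, most of them past the threshold. Acly, which makes cytosolic acetyl-CoA from citrate, was at 244, 188, 269 and 141 CPM against 287, 360.5, 426 and 351 CPM and just missed the threshold (adjusted p = 0.0522, and 0.0259 without labelled knockout 4). Acss2, which makes acetyl-CoA from acetate, was at 95.4, 92.9, 81.2 and 76.9 CPM against 153, 135, 141 and 187 CPM (log2 fold change -0.83 ± 0.13, adjusted p = 0.00977). The acetyl-CoA carboxylase gene Acaca was at 71.6, 53.1, 94.5 and 55.1 CPM against 112, 132, 124 and 115 CPM (log2 fold change -0.82 ± 0.17, adjusted p = 0.0247). These enzymes feed the fatty acid synthase.

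Its gene, Fasn, was at 95.6, 80.9, 113 and 85.9 CPM against 175, 183, 312 and 227 CPM, 2.4-fold lower in the labelled knockouts (log2 fold change -1.26 ± 0.19, adjusted p = 0.00833). Mid1ip1, which activates acetyl-CoA carboxylase by driving its polymerization, was at 15.6, 11.6, 17.2 and 13.9 CPM against 28.1, 29.5, 34.2 and 28.3 CPM (log2 fold change -1.05 ± 0.14, adjusted p = 0.00601), and Acacb, the mitochondrial carboxylase, had a log2 fold change of -1.11 (adjusted p = 0.00997).

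Of 13 desaturase and elongase genes 4 were called lower and 1 higher. Scd1, the delta-9 desaturase and one of the most abundant of these transcripts, was at 9483, 13321, 9814 and 8098 CPM against 23202, 16444, 20129 and 18034 CPM (log2 fold change -0.93 ± 0.18, adjusted p = 0.0182). Fads2, the delta-6 desaturase of polyunsaturated fatty acids, was at 349.8, 263, 368 and 179.9 CPM against 685, 611, 699 and 758 CPM (log2 fold change -1.25 ± 0.20, adjusted p = 0.0114), and Fads1 and Elovl5 fell with adjusted p of 0.0293 and 0.0272. Elovl3, an elongase that is higher in male mouse liver, rose instead, at 403, 524, 364 and 455 CPM against 349, 221, 167 and 202 CPM (log2 fold change 0.89 ± 0.21, adjusted p = 0.0415). Its call was lost without labelled knockout 4 (adjusted p = 0.0643).

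Sterol synthesis fell as well, with 9 of 24 genes called lower and none higher (median -0.46). The count was 3, 3, 1 and 2 without flox/flox livers 1 to 4 in turn and 3 without labelled knockout 2. Fdft1, the squalene synthase that commits isoprenoids to sterols, was at 43.4, 48.7, 47.8 and 40.2 CPM against 79.9, 68.3, 91.4 and 110.4 CPM (log2 fold change -0.96 ± 0.14, adjusted p = 0.00821). Scap, the escort protein that carries SREBPs to the Golgi, fell too (log2 fold change -0.58, adjusted p = 0.0238). Sqle, the squalene epoxidase, was not called, at 25.4, 16.2, 21.9 and 15.2 CPM against 14.6, 17.5, 13.9 and 20.0 CPM with overlapping groups (adjusted p = 0.429). The 9-letter SREBP element TCACNCCAC, on both strands, was in none of the 16 called synthesis genes with a promoter, in 2 of 25 not past the threshold and in 1.05% of all promoters. Counted by promoter, it was in none of 21 and in 2 of 34.

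Of 34 triglyceride assembly and storage genes 7 were called lower and 1 higher. Lpin1, the phosphatidate phosphatase that also acts as a coactivator, rose from 307, 199.9, 380.1 and 374 CPM to 722, 784, 728 and 572 CPM (log2 fold change 1.15 ± 0.19, adjusted p = 0.0131). Plin2, the coat protein of hepatocyte lipid droplets, fell from 457, 518, 451 and 399.9 CPM to 256, 265, 272 and 308 CPM (log2 fold change -0.73 ± 0.12, adjusted p = 0.0117). G0s2, an inhibitor of adipose triglyceride lipase, was at 67.5, 49, 64.9 and 37.5 CPM against 99.8, 105, 132 and 157 CPM (log2 fold change -1.18 ± 0.21, adjusted p = 0.0166), and Mgll, the monoglyceride lipase, at 191, 166, 197 and 170.4 CPM against 297, 286, 312 and 299.7 CPM (log2 fold change -0.72 ± 0.11, adjusted p = 0.00728). Lpin1 thus moved against the 7 called falls of the list. Pnpla2, the lipase that G0s2 inhibits, had at most 0.817 CPM in any liver and could not be read.

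**Figure D4:**
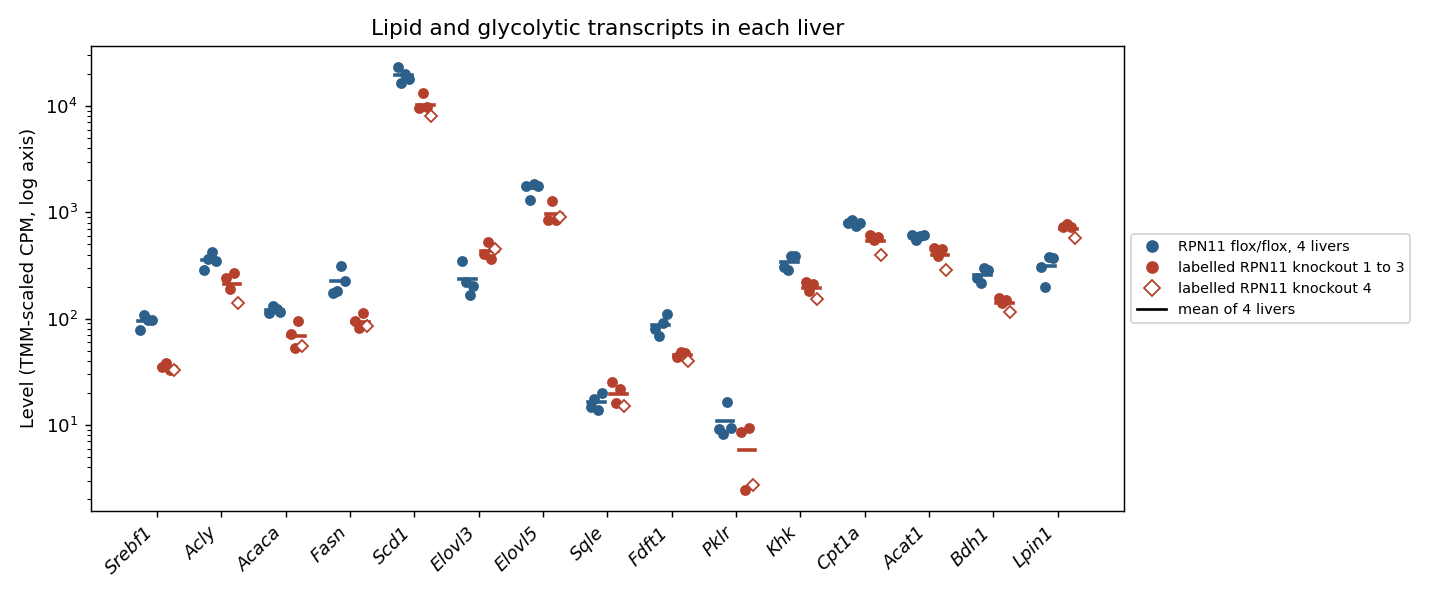
Level of 15 lipid and glycolytic genes (TMM-scaled CPM, log axis) in each liver, bars marking group means of 4. Srebf1, Fasn, Fdft1 and Bdh1 separate the groups downward and Lpin1 upward, while Sqle and Pklr overlap.

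Fatty acid oxidation genes were lower beside those of synthesis. Of 46 tested genes 11 were called lower and none higher, with a median of -0.50, and the separation of all 8 livers held in 26 of the 46, against 9.86% of all genes. The 11 calls became 1 without flox/flox liver 1, 3 or 4, 3 and 7 without labelled knockout 2 or 3, and 18 without labelled knockout 4. Cpt1a, the carnitine acyltransferase that admits fatty acids to mitochondria, was at 615, 547, 591 and 401 CPM against 791, 847, 746 and 799 CPM (log2 fold change -0.56 ± 0.14, adjusted p = 0.0479). Hadh, a dehydrogenase of the mitochondrial spiral, was at 313, 253, 310.3 and 212 CPM against 458, 423, 499 and 500.5 CPM (log2 fold change -0.79 ± 0.14, adjusted p = 0.016). In both, labelled knockout 4 was the lowest liver.

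Vnn1, a pantetheinase and PPAR alpha target, was the oxidation gene of lowest p, at 63.5, 67.9, 64.6 and 52.5 CPM against 156, 104, 154 and 164 CPM (log2 fold change -1.22 ± 0.15, adjusted p = 0.00339). Ppara itself was at 86.8, 44.3, 93.1 and 33.4 CPM against 142, 159.7, 122 and 113 CPM, below every flox/flox liver in each labelled knockout, but the spread within the labelled knockouts was wide (adjusted p = 0.0989). The PPAR alpha targets Pdk4 and Fgf21 were not called (adjusted p = 0.65 and 0.142).

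Ketone body synthesis fell in 4 of 6 genes, a count of 1, 2, 0 and 0 without flox/flox livers 1 to 4 in turn and of 2 without labelled knockout 2 or 3. Bdh1, which reduces acetoacetate, was at 157, 140.4, 151 and 115 CPM against 240.1, 217, 297 and 284 CPM (log2 fold change -0.88 ± 0.14, adjusted p = 0.00997), and Acat1, the mitochondrial acetyl-CoA acetyltransferase, at 459, 387, 454 and 289 CPM against 608, 554, 596 and 612 CPM (log2 fold change -0.58 ± 0.15, adjusted p = 0.0497). Without labelled knockout 4 the same count of 4 was called and the list's median moved from -0.62 to -0.49.

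In the respiratory chain none of 48 oxidative phosphorylation genes was called by edgeR, with a median of -0.05. Of the 48, 7 had an unadjusted p under 0.05 there, and DESeq2 called 3 lower and limma-voom 2. None of 42 cytosolic ribosomal protein genes was called by any of the 3 tools, and none had an unadjusted p under 0.05 in edgeR. Over all 12108 genes 3032 had one, so the absence of calls in a list does not show that its genes were equal.

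Glucose enzymes fell in 6 of 26 genes, with 1 rise. Pcx, which starts gluconeogenesis from pyruvate, was at 301, 224, 311 and 166 CPM against 416, 410.0, 478 and 450.4 CPM (log2 fold change -0.81 ± 0.18, adjusted p = 0.0317). Khk, the fructokinase, was at 223, 183, 214 and 153 CPM against 303, 284, 389 and 389.9 CPM (log2 fold change -0.82 ± 0.16, adjusted p = 0.018). Pdk1, which inhibits pyruvate dehydrogenase, was at 101, 73.1, 106 and 62.7 CPM against 166, 144, 159.8 and 173 CPM (log2 fold change -0.91 ± 0.16, adjusted p = 0.0159). The rate-setting gluconeogenic genes Pck1 and G6pc were not called (adjusted p = 0.845 and 0.729).

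Pfkfb3, which makes the fructose 2,6-bisphosphate that speeds glycolysis, rose 3.98-fold, from 11.2, 7.51, 8.83 and 9.33 CPM to 48.5, 23.6, 49.5 and 25.3 CPM (log2 fold change 1.99 ± 0.27, adjusted p = 0.0076). Labelled knockouts 1 and 3 were about alike and high, and labelled knockouts 2 and 4 were lower and still above every flox/flox liver. Akt2, the insulin-responsive kinase of hepatocytes, was the single called gene of 18 in insulin signalling, at 49.5, 42.1, 46.4 and 44.9 CPM against 60.2, 72, 63.9 and 68.4 CPM (log2 fold change -0.53 ± 0.10, adjusted p = 0.018).

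In amino acid catabolism 2 of 50 genes were called higher and 3 lower, beside 1.99% and 2.82% of all tested genes. Tat, the tyrosine aminotransferase, was at 2219, 2872, 2174 and 2157 CPM against 1004, 1222, 1167 and 1458 CPM (log2 fold change 0.96 ± 0.15, adjusted p = 0.0111). Acmsd, which diverts tryptophan breakdown away from NAD synthesis, was at 55.6, 101, 55.9 and 59.6 CPM against 28, 42.4, 19 and 30.7 CPM (log2 fold change 1.18 ± 0.27, adjusted p = 0.0446), a call lost without labelled knockout 4 (adjusted p = 0.0571). Outside that list, Cebpb, a transcription factor of the acute phase and of gluconeogenesis, was at 50.1, 71, 48.6 and 55.1 CPM against 29.8, 29.8, 39.6 and 44.2 CPM (log2 fold change 0.65 ± 0.16, adjusted p = 0.0449). None of 8 urea cycle genes was called by edgeR (2 had an unadjusted p under 0.05, and DESeq2 called 1 lower).

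Clock genes were split. Clock, the activating partner of the core loop, was at 60.2, 64.2, 66.2 and 61.3 CPM against 47.6, 47.2, 38.2 and 44.4 CPM (log2 fold change 0.51 ± 0.10, adjusted p = 0.0222), and Ccrn4l, the rhythmic deadenylase nocturnin, at 108, 170.3, 125 and 143 CPM against 33.6, 53.6, 81.9 and 78.3 CPM (log2 fold change 1.14 ± 0.27, adjusted p = 0.0486). The Ccrn4l call was lost without labelled knockout 4 (adjusted p = 0.0971). Per3, a repressor of the loop, was at 14.4, 20.8, 19 and 20.9 CPM against 27.1, 35.9, 28.7 and 43.9 CPM (log2 fold change -0.85 ± 0.18, adjusted p = 0.023), and Tef and Wee1 fell (adjusted p = 0.0152 and 0.0182). Of 26 genes 2 were called higher and 3 lower, beside 1.99% and 2.82% of all tested genes. No source used here gives the time of collection, and its part in these differences was not tested.

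Sex-biased liver genes were called in opposite directions by bias. Of 25 male-biased genes 7 were called higher and none lower (median 0.75), and of 16 tested female-biased genes 2 were called lower and none higher (median -0.98). The 7 became 4, 2 and 3 without flox/flox liver 1, 3 or 4 and 4 without labelled knockout 1 or 2. Flox/flox liver 2 sat with the labelled knockouts on both lists. Its male-biased sum was 37843 CPM, against 17719 to 26483 CPM in the other flox/flox livers and 30254 to 50573 CPM in the labelled knockouts. Its female-biased sum was 1151 CPM, against 2726 to 3523 CPM and 1094 to 2188 CPM. Cyp4a12b, an androgen- and growth hormone-dependent hydroxylase of arachidonic acid, was at 112, 93.1, 105 and 77 CPM against 25.6, 26.5, 13.7 and 14.1 CPM (log2 fold change 2.27 ± 0.24, adjusted p = 0.00339). Gstp1, a glutathione transferase, was at 484, 558, 494 and 459 CPM against 204, 281, 264 and 173 CPM (log2 fold change 1.11 ± 0.16, adjusted p = 0.00681). Bcl6, a male-biased repressor that opposes STAT5, was at 41.6, 25.9, 43.5 and 25.6 CPM against 15.8, 15.2, 11.4 and 11.4 CPM (log2 fold change 1.34 ± 0.21, adjusted p = 0.00997), and Stat5a fell (log2 fold change -0.73 ± 0.14, adjusted p = 0.0182).

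Selenbp2 was at 756, 493, 722 and 427 CPM against 47.2, 138, 26.3 and 34.2 CPM (log2 fold change 3.29 ± 0.59, adjusted p = 0.0299), with flox/flox liver 2 well above the other flox/flox livers. Serpina1e, an alpha-1-antitrypsin paralog, was at 3602, 7416, 3348 and 5393 CPM against 872, 1835, 451 and 503 CPM (log2 fold change 2.43 ± 0.52, adjusted p = 0.0432), again with flox/flox liver 2 the highest control, and lost its call without labelled knockout 4 (adjusted p = 0.0881). Among female-biased genes Hao2 was at 0.762, 0.748, 1.61 and 0.451 CPM against 5.48, 2.75, 5.98 and 4.47 CPM (log2 fold change -2.38 ± 0.44, adjusted p = 0.0169) and Slc22a26 at 1.05, 3.28, 1.77 and 0.492 CPM against 5.72, 6.67, 8.58 and 16.9 CPM (log2 fold change -2.51 ± 0.56, adjusted p = 0.0381). All 8 livers are labelled male. Cyp4a12b, Selenbp2, Serpina1e, Gstp1, Slc22a26, Apol9a, Chi3l3 and the guanylate-binding protein genes have near-identical copies, and no source used here says how reads shared between copies were counted, so their values are uncertain to that extent.

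In the integrated stress response 3 of 25 genes rose, or 6 without labelled knockout 4, and DESeq2 called 7 higher. Among the 3 were Ddit3, the CHOP factor, at 11.9, 12, 14.4 and 13.8 CPM against 5.99, 9.04, 7.4 and 8.52 CPM (log2 fold change 0.75 ± 0.17, adjusted p = 0.0351), and Nupr1 at 4.28, 6.41, 3.42 and 6.72 CPM against 1.61, 1.98, 1.99 and 0.602 CPM (log2 fold change 1.75 ± 0.41, adjusted p = 0.0348). Asns, the asparagine synthetase that ATF4 controls, was at 2.36, 5.84, 0.741 and 16.8 CPM against 0.157, 0.686, 0.732 and 0.473 CPM, with most of the difference in labelled knockouts 2 and 4 (adjusted p = 0.062). Of 26 endoplasmic reticulum chaperone and unfolded protein response genes none was called by edgeR, 3 had an unadjusted p under 0.05, DESeq2 called 1 lower, and limma-voom called 2 higher and 1 lower. Hspa5 overlapped at 1327, 849, 1301 and 642 CPM against 668, 1284, 736 and 627 CPM.

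Cytosolic heat shock genes gave 1 call of 21, Hspa1b at 19.7, 17.6, 23.4 and 14.1 CPM against 10.1, 9.53, 12 and 11.3 CPM (log2 fold change 0.80 ± 0.17, adjusted p = 0.026). That count was 7 of 21 without labelled knockout 4, with Hspa1a at an adjusted p of 0.0418 and Hsp90aa1 at 0.0108. Of 21 p53 targets Mdm2, the ligase that restrains p53, rose (log2 fold change 0.44 ± 0.10, adjusted p = 0.0301), as did Trp53inp1 (log2 fold change 0.72 ± 0.13, adjusted p = 0.0175). Cdkn1a, the p21 cell cycle inhibitor, was at 43.9, 57.1, 36.8 and 55.4 CPM against 28, 6.9, 29.8 and 9.2 CPM and was not called (adjusted p = 0.148). None of 23 cell cycle genes was called by edgeR or DESeq2, although 2 had an unadjusted p under 0.05 and limma-voom called 1 higher.

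Drug metabolism, transport and plasma protein lists had medians below 0 (P450 -0.43, transporters -0.37, plasma proteins -0.23). Without labelled knockout 4 these were -0.29, -0.22 and -0.17. With all 8 livers, edgeR called 3 of 21 transporter genes lower, beside 2.82% of all tested genes. DESeq2 called 6 P450 and receptor genes lower, 6 transporter genes lower and 1 higher, and 10 plasma protein genes lower and 1 higher. Nr1i3, the receptor CAR that drives drug-metabolizing genes, was at 366, 322, 359 and 279 CPM against 515, 485, 569 and 764 CPM (log2 fold change -0.81 ± 0.16, adjusted p = 0.0195), and 3 of 27 P450 and receptor genes were called lower. Cyp7a1, the rate-limiting enzyme of bile acid synthesis, was at 292, 367, 272 and 253 CPM against 214, 147, 178 and 234 CPM and just missed the threshold (adjusted p = 0.055, and 0.018 without labelled knockout 4). Of 54 plasma protein genes 2 were called lower, and of 23 acute phase genes 1, Itih4 (log2 fold change -1.14 ± 0.24, adjusted p = 0.0288).

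Smaller changes touched iron and retinoid handling and the matrix. The transferrin receptor gene Tfrc rose from 19.9, 21.7, 26.2 and 23.5 CPM to 33, 37.1, 29.2 and 34 CPM (log2 fold change 0.55 ± 0.12, adjusted p = 0.0322), and Tmprss6, a protease that holds down hepcidin, fell (log2 fold change -0.59 ± 0.15, adjusted p = 0.0409), while hepcidin itself (Hamp) was not called (adjusted p = 0.485). Rdh16, a retinol dehydrogenase, was at 123, 107, 113 and 77.4 CPM against 207, 151, 237 and 257 CPM (log2 fold change -1.02 ± 0.18, adjusted p = 0.016). In the matrix list, the proteoglycan gene Lum rose (log2 fold change 0.72 ± 0.16, adjusted p = 0.031) and Mmp14, a membrane-bound collagenase, fell (log2 fold change -0.67 ± 0.13, adjusted p = 0.018), with the fibrillar collagens Col1a1 and Col3a1 not called. None of 23 chemokine and cytokine genes was called by edgeR, but 9 had an unadjusted p under 0.05, DESeq2 called 2 higher and 1 lower, and limma-voom called 4 higher and 1 lower.

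Genes outside the lists were also among those of lowest p. Lrrc14b (chr13:74359578-74364005) was at 9.66, 12, 12.5 and 6.27 CPM against 0.823, 0.877, 1.26 and 1.72 CPM, an 8.65-fold difference in means (log2 fold change 3.11 ± 0.33, adjusted p = 0.00194). Fbxo2, which encodes a ubiquitin ligase subunit that recognizes glycoproteins, was at 2, 2.14, 2.1 and 2.21 CPM against 0, 0, 0.0407 and 0 CPM, which is 220 counts in the labelled knockouts and 1 in the flox/flox livers. The ratio of those counts per library total was 230 with an exact 95% interval of 40.9 to 9140 that covers counting error only (adjusted p = 0.00194). In the flox/flox livers Fbxo2 was thus nearly silent, while Lrrc14b was low but present in each.

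Btg3, an antiproliferative gene, was at 9.04, 12, 10.05 and 12.1 CPM against 2.27, 3.93, 3.38 and 2.45 CPM (log2 fold change 1.84 ± 0.24, adjusted p = 0.00442). Pfn2, a profilin that is abundant in brain, was at 9.51, 11.4, 9.43 and 22.5 CPM against 3.37, 3.01, 2.52 and 2.28 CPM (log2 fold change 2.24 ± 0.30, adjusted p = 0.00601), highest in labelled knockout 4 and called without it (log2 fold change 1.86 ± 0.22, adjusted p = 0.000469). The falls of lowest p after Srebf1 were Dclk3, a kinase gene, at 4.36, 3.92, 3.62 and 4.14 CPM against 10.2, 11.2, 13.2 and 13 CPM (log2 fold change -1.57 ± 0.18, adjusted p = 0.00239), and Gas6, the ligand of the TAM receptors, at 18.2, 26.1, 18.4 and 21.5 CPM against 41.6, 48.7, 49.1 and 45.2 CPM (log2 fold change -1.13 ± 0.13, adjusted p = 0.00292). Slc25a10, the mitochondrial dicarboxylate carrier, was at 48.5, 46.4, 48.3 and 40.7 CPM against 94.8, 69.7, 114 and 113 CPM (log2 fold change -1.09 ± 0.15, adjusted p = 0.00601), and Abca3, a lipid transporter, at 42.2, 29.6, 41.2 and 31.2 CPM against 75.2, 75.5, 83.9 and 62.7 CPM (log2 fold change -1.04 ± 0.14, adjusted p = 0.00601). None of these falls showed overlap. Sema4a, Zfp395, Gna12 and Carhsp1 also fell, with log2 fold changes of -1.01, -0.96, -0.73 and -0.75.

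Leaving out labelled knockout 4 removed 20 calls and added 217 higher and 161 lower ones. The lost calls of lowest p were Cyp2a22, Bcl2a1d, Elovl3, Serpina1e, Rapgef6 and Nln. Bcl2a1d, a survival gene of leukocytes, was at 0.835, 1.14, 1.15 and 9.18 CPM and Rapgef6 at 1.92, 1.85, 2.18 and 10.8 CPM in the labelled knockouts, both highest in that liver. The gained calls of lowest p were Mmp12, Chi3l3, Wipf3, Clstn3, Mmp13 and Slc7a11.

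Of these, Mmp12 (log2 fold change 1.77 ± 0.13, adjusted p = 1.45e-05), Chi3l3 (log2 fold change 1.57 ± 0.14, adjusted p = 3.46e-05), Mmp13 (log2 fold change 1.68 ± 0.27, adjusted p = 0.00344) and the cystine transporter gene Slc7a11 (log2 fold change 2.08 ± 0.34, adjusted p = 0.00369) were higher in labelled knockouts 1 to 3 than in flox/flox livers. They are also genes in which labelled knockout 4 was over 5 times above the 7 others, as were 27 of the 213 higher calls gained among genes tested in both fits. The part of the material in labelled knockout 4 in these differences was not tested. Wipf3 and Clstn3 fell without labelled knockout 4 (log2 fold changes -1.10 and -1.67), and for both that liver was the highest of the labelled knockouts. Of 126 named genes called with 8 livers, 118 were called without labelled knockout 4. That count is partly set by the naming rule, which required this call of some genes and picked 6 others because they lost it. Direction changed in none, which the separation of the groups largely fixed beforehand.

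**Figure D5:**
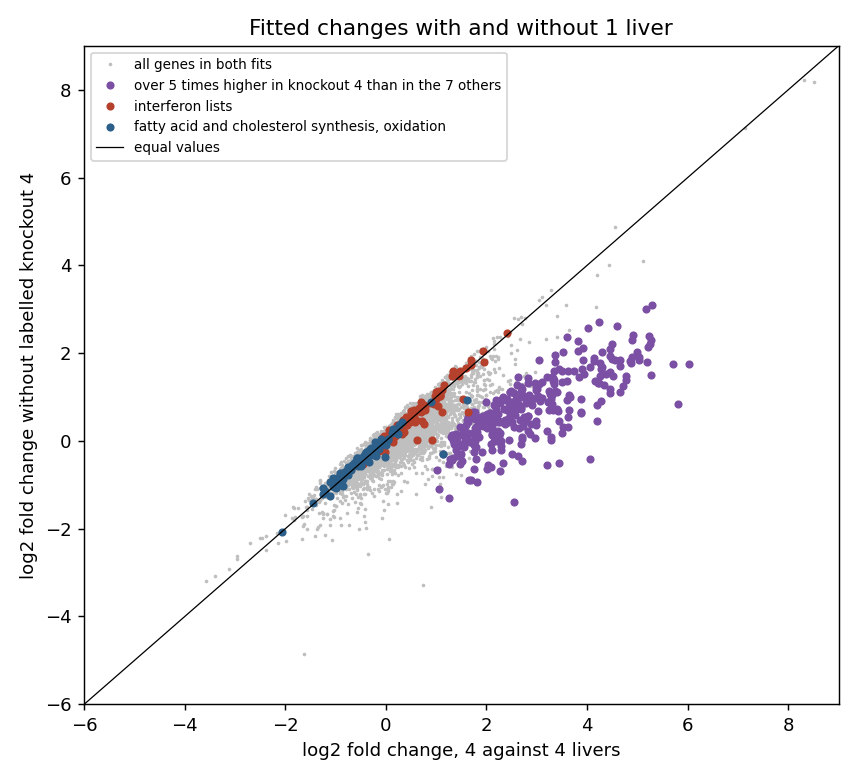
Log2 fold change of each gene tested in both fits with all 8 livers (x axis) and without labelled knockout 4 (y axis); the line marks equal values. The 319 genes over 5 times higher in labelled knockout 4 (purple) lie below the line, and the interferon (red) and lipid (blue) genes lie mostly along it.

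Against the METTL3 line, 1720 of 13118 genes (13.1%) had an effect that differed by the interaction test over all 16 livers, which do not share controls, and 159 of the 583 genes called here were among them. Usp18 rose more in the labelled RPN11 knockouts (METTL3 line 1.12, difference 1.28 ± 0.32, adjusted p = 0.0148). Ifi27 was not called in the METTL3 line (-0.48, adjusted p = 0.0677, difference 1.92 ± 0.28, adjusted p = 0.000583). Rsad2 and Trim30a rose in the METTL3 line too (1.05 and 1.02), with adjusted p of the difference of 0.971 and 0.99. Over the 5 interferon lists 18 of 111 genes differed between the lines, beside 13.1% of all genes, and 7 of the 18 were among the genes called here. In the METTL3 line, by the fit of all 16 livers, 50 of the 111 were called higher and 9 lower. The share of all genes called in that line is not given here, so these counts are not read as a result about the lists. For single genes such as Rsad2 and Trim30a, the rise was not particular to the RPN11 line.

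In the lipid lists, of 52 tested fatty acid, desaturation and sterol synthesis genes 23 differed between the lines, among them Srebf1 (METTL3 line -0.28, difference -1.18 ± 0.24, adjusted p = 0.0043), Acaca (METTL3 line 1.22, difference -2.04 ± 0.38, adjusted p = 0.00334) and Fdft1 (METTL3 line 0.41, difference -1.38 ± 0.25, adjusted p = 0.00225). Of 52 oxidation and ketogenesis genes 9 differed, and none of the 15 called lower here was among them. Lpin1 moved in opposite directions (METTL3 line -2.10, difference 3.24 ± 0.32, adjusted p = 2.59e-05), as did Pfkfb3 (METTL3 line -1.34, difference 3.32 ± 0.42, adjusted p = 0.000238) and Ccrn4l (METTL3 line -2.50, difference 3.62 ± 0.44, adjusted p = 0.000239).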

How the data were processed

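Ribosomal RNA-depleted total liver RNA was sequenced, per the labels' protocols. The authors' processing used cutadapt 1.9.3, HISAT2 2.0.4 and HTSeq 0.9.1 with mm10, per the submitters' processing notes; the annotation, the strand setting and the handling of multi-mapped reads are not stated in those sources. The deposited values are raw counts per gene for 16973 genes. Genes were kept by edgeR's filterByExpr (12108), scaled by TMM and tested with edgeR 4.0.16 (quasi-likelihood, robust, 4 against 4 livers, 6 residual degrees of freedom) with Benjamini-Hochberg adjustment, in R 4.3.3. Levels are TMM-scaled CPM computed from the counts, not corrected for gene length, so levels are compared only within a gene. The difference between lines was an interaction term over all 16 livers. DESeq2 1.42.0 and limma 3.58.1 were alternatives, and the test was checked on simulated data. Coordinates are from GENCODE M21 (GRCm38), which matched 16804 of the 16973 gene identifiers.

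Named genes were the 12 of lowest p in each direction with separated groups, a call also without labelled knockout 4 and a level averaging 1 CPM or more, the 6 calls of lowest p lost and the 6 gained without that liver, up to 5 called genes of lowest p per list, and genes marked in the lists to be named whatever their values. Camk2a, Mbp, Gpnmb and other cell type markers are named from their marker lists, and the 319 genes far above in labelled knockout 4 were picked by their values. The members and lists were chosen with earlier results of these data known. Some genes that the rule names are not reported here.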

Additional observations from a re-analysis of the deposited data

Results flagged for a closer look

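Of 474 groups of 4 livers examined, 40 had 1 liver far from the rest, where chance gives about 1 in 20. Labelled knockout 4 was that liver in 20 of the 40, and the highest in 14. The groups came from the named genes and summed lists, and some genes were named because their call changed without that liver. The tally is thus partly set by that choice and cannot be weighed against chance for labelled knockout 4. In CPM it stood above the other labelled knockouts for Mmp12 (3602), Chi3l3 (1273), Mmp13 (164.2), Slc7a11 (78.49), Wipf3 (35.07), Pfn2 (22.53), Rapgef6 (10.82) and Bcl2a1d (9.177), for Cd36 (287.7) and Ifnar1 (7.005), and in the macrophage (3796), neuron (686.3), cholangiocyte (633.9) and neutrophil (30.89) marker sums. It stood below them for Acsl5 (263.4), Gys2 (151.6), Ifi27 (110.2), Apol9a (78.04), Ccnd1 (15.24) and Ifit1 (13.56).

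Among the other labelled knockouts, the first stood apart for Dhx58 (14.16), the second for Tat (2872), Elovl5 (1276) and Acmsd (101.4), and the third for Bckdha (64.65). Flox/flox liver 2 stood apart for Hspa5 (1284), the acute phase gene Saa1 (749), Vnn1 (103.9), Dnajb9 (89.09), Lcn2 (56.25), Irf9 (49.96) and Ddx58 (31.27). Flox/flox liver 3 did so for Apoa4 (1640), Pklr (16.31), Fbxo2 (0.0407) and the neuron sum (16.51), liver 4 for Mlxipl (529.4), Nr1i2 (110.3) and Nr1d1 (15.65), and liver 1 for Acacb (140.3).

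The response differed between the RPN11 and METTL3 lines, by an interaction test, in 1720 genes. Among the genes of lowest p, the RPN11 log2 fold change was above the METTL3 one for Fbxo2 (7.97, a fitted value against near-zero counts), Lrrc14b (2.05), Ifi27 (1.92), Usp18 (1.28), Ifit1 (1.1), Mgll (0.986) and Apol9a (0.753). It was below for Abca3 (-1.71), Gas6 (-1.41), Sema4a (-1.18), Srebf1 (-1.18), Mid1ip1 (-0.925) and Dclk3 (-0.824).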

How the results depend on the processing

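The counts of called genes (241 higher and 342 lower with all 8 livers) moved with the fit. They were 149 and 201 with no filter on low counts, 374 and 443 among genes with a mean of at least 5 CPM (a smaller set of tests), 584 and 710 by DESeq2, 649 and 809 by limma-voom with quality weights, and 160 and 183 in a fit of all 16 livers. Leaving out 1 liver at a time gave 37 to 447 higher and 18 to 494 lower; the cause was not tested. RLE size factors gave 233 and 316. Same-numbered livers of both groups had correlations of -0.14 to -0.01 in their deviations, none of them positive, so the main fit was left unpaired. Whether the replicate numbers mark a shared step was not tested. A fit with the replicate block called 150 higher and 226 lower. Labelled knockouts 1 and 3 summed as 1 library, chosen after seeing the data, gave 176 and 241. The Psmd14 log2 fold change stayed within -0.08 to 0.11, never past the threshold. Of 126 named called genes 52 to 118 kept their call when 1 labelled knockout was left out. The range was 33 to 73 with 1 flox/flox liver left out. The 118, without labelled knockout 4, is partly set by the naming rule. No direction reversed, which the complete separation of nearly all called genes largely fixed beforehand. Saa1, not called, had a log2 fold change of -1.28 and turned within a range of -1.643 to 1.303 when 1 liver was left out, the highest without flox/flox liver 2, where its level is 749 CPM. The count that differed between lines was 1780 with RLE, 1771 with the block and 1822 without labelled knockout 4 of both lines. With 4 livers a group, genes of a few counts are limited by counting error, and the floxed exons could not be read.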

Other observations

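Some genes split the labelled knockouts into the pair 1 and 3 and the pair 2 and 4. Cyp2b10, the P450 that CAR induces, was at 10.8, 0.463, 8.11 and 0.696 CPM in labelled knockouts 1 to 4 and 7.68, 5.19, 11.6 and 8.56 CPM in flox/flox livers. The metallothionein gene Mt1 was at 36.4, 117, 38.2 and 135 CPM against 24.1, 55.5, 28.1 and 37.7 CPM, with labelled knockouts 2 and 4 high. Cdkn1a split the flox/flox livers instead, with livers 1 and 3 at 28 and 29.8 CPM and livers 2 and 4 at 6.9 and 9.2 CPM. These values were picked after they were seen and carry no test.

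Of 9 fetal liver genes all 9 had a log2 fold change above 0, with a median of 0.94. EdgeR called none, 3 had an unadjusted p under 0.05 and DESeq2 called 3 higher. Their sum was 94.3 CPM in labelled knockout 4, 19.3 to 37.0 CPM in the other labelled knockouts and 10.8 to 15.6 CPM in flox/flox livers. Of 20 m6A genes 2 were called higher, beside 1.99% of all tested genes. They were Ythdc1, a nuclear reader (log2 fold change 0.56 ± 0.14, adjusted p = 0.0409), and Hnrnpa2b1 (log2 fold change 0.52 ± 0.13, adjusted p = 0.0434).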
